A study of Mus musculus with 28 samples.

Results

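A set of 7 forkhead genes linked to stroma was followed through reprogramming of mouse fibroblasts with and without a K36M histone: Foxd1, Foxc1, Foxc2, Foxf2, Foxp1, Foxp2 and Foxq1. These 7 genes were chosen by name from results of the same libraries, so their own levels and differences are given as a description, with no test. Across 37620 genes in the count table the forkhead name was carried by the 7 and by 37 others, of which 29 had enough reads to be tested. The K36M groups were mouse embryonic fibroblasts (MEFs) with the K36M genotype at d0, reprogramming intermediates of d2, d4, d6 and d8, passaged induced pluripotent stem cells (iPSCs) and MEFs labelled noOKSM; the WT groups were the same 7 stages with WT genotype, and library names give H3_3 (histone H3.3) for WT. K36M stands for a lysine-to-methionine change in the tail of histone H3, and OKSM for the reprogramming factors Oct4, Klf4, Sox2 and Myc. MEFs grew in serum, reprogramming cells in AGi medium and iPSCs in S/L medium, so stage and medium cannot be told apart. The sources used here do not state the animals' age, strain or sex, the promoter driving the histone, or whether any line is a single clone, and counts per gene cannot separate the K36M sequence from the WT one. Each of the 14 groups held 2 libraries, and nothing says that they came from separate cultures. Each p-value thus reflects only how far libraries of the same group lie apart, which may be technical. That spread was estimated over all 14 groups together, so it is not the spread of the 2 groups compared.

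Forkhead proteins bind DNA through a shared winged-helix domain and set cell identity in many lineages. Foxd1 marks stromal progenitors of the kidney and other organs and has been described as passing through a peak while mouse fibroblasts reprogram. Foxc1 and Foxc2 act in mesenchyme derived from mesoderm and neural crest, and Foxf2 in mesenchyme of the gut and palate, where Hedgehog signals drive it. Foxp1 and Foxp2 are repressors that recruit the CtBP and NuRD corepressors, and Foxq1 acts in epithelia such as the hair follicle and stomach.

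Foxq1, Foxf2 and Foxc1 lie in a row on the plus strand of chromosome 13. In mm9 they span 31650039 to 31652839, 31717685 to 31723272 and 31898515 to 31902504. The starts of Foxq1 and Foxf2 are 67.6 kb apart and those of Foxf2 and Foxc1 180.8 kb apart. Foxd1 is on the same chromosome and strand, from 99124200 to 99126660. Foxc2 (chromosome 8, 123640071 to 123642792, plus strand) sits 31.8 kb from Foxf1a and 11.8 kb from Foxl1. Foxp1 (98875332 to 99216526, minus strand) and Foxp2 (14851349 to 15391977, plus strand) are the large genes of the set, both on chromosome 6. The annotation calls each of the 7 protein-coding.

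Promoter sequence is shown for 3 chromosome 13 genes, because Foxd1 and Foxc1 were both far lower in K36M from d4 on and Foxf2 shares a cluster with Foxc1. The sequences are the 250 bases before the RefSeq start in GRCm38.p6, a build other than that of the counts, 5′ to 3′ on the plus strand. They cover chr13:98353995-98354244 for Foxd1, chr13:31806396-31806645 for Foxc1 and chr13:31625566-31625815 for Foxf2. Capitals mark matches, on either strand, to the GC box letters GGGCGG, the CCAAT box, the TATA box letters TATAAA, the forkhead core TGTTTAC, and the AP-1 letters TGACTCA with their variant TGAGTCA; no motif overlapped another.
Foxd1: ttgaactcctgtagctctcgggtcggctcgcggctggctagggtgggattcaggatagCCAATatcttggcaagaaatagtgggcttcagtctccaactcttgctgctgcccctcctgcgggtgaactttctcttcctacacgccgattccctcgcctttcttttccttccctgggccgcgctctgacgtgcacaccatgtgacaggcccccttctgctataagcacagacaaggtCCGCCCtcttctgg
Foxc1: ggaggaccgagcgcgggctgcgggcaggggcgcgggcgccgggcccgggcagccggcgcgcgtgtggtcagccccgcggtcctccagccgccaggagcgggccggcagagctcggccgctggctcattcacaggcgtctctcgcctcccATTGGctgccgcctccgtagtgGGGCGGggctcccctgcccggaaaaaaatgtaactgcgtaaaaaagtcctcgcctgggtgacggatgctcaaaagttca
Foxf2: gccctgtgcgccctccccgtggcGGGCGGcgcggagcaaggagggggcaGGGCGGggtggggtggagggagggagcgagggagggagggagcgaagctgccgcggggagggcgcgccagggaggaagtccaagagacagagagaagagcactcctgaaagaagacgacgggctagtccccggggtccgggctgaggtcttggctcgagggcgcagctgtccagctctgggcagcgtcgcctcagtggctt
Foxd1 held 1 CCAAT box 192 bases and 1 GC box 14 bases before the start, Foxc1 held a CCAAT box at 101 and a GC box at 79 bases, and Foxf2 held GC boxes at 227 and 201 bases. Among all 32851 RefSeq promoters of the table, searched over the same 250 bases, 32.7% held a GC box and 33.8% a CCAAT box. None of the 3 windows held the TATA box, forkhead core or AP-1 letters, which 12.4%, 3.17% and 4.46% of all promoters held. The letters GC made up 57.2% of the Foxd1 window, 70.8% of the Foxc1 window and 71.6% of the Foxf2 window.

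Total gene counts ran from 17507521 to 35622279 per library, so 1 read was worth 0.0446 CPM (counts scaled to a common library size with TMM factors, per 1e+06) in K36M d0 replicate 1. All 7 genes passed the filter on low counts, but Foxq1 had 124 counts over the 28 libraries and Foxf2 457, against 56536 for Foxp1. Marker sums varied with stage and genotype. The 8 fibroblast markers summed to 32400 to 32900 CPM in K36M MEFs at d0, against 25900 to 29800 CPM in WT MEFs at d0. At d8 the same sum was 224 to 237 CPM in K36M cells, against 4980 to 5540 CPM in WT cells. A list of 6 pluripotency markers stood at 1250 to 1270 CPM in K36M cells at d8, against 220 to 223 CPM in WT cells. Epithelial markers (6 genes) summed to 3660 to 3740 CPM in K36M cells at d8, against 910 to 997 CPM in WT cells. In noOKSM MEFs they summed to 189 to 211 CPM in K36M, against 16.2 to 19.3 CPM in WT. There Krt8 (93.6 CPM in K36M, 0.487 CPM in WT) and Krt18 (104 CPM in K36M, 15.4 CPM in WT) made up nearly all of the K36M sum. In K36M noOKSM MEFs Cdh1, Epcam and Cldn6 were at 0.297 CPM or less. Cldn4 was at 1.41 CPM in K36M noOKSM MEFs, against 1.68 CPM in WT. At d0, macrophage markers (6 genes) stood at 12.9 CPM in both K36M libraries, against 41.7 to 44.9 CPM in WT. Skeletal muscle markers (5 genes, Ckm at 0) stood at 276 to 287 CPM in K36M, against 444 to 493 CPM in WT. Acta1 (239 CPM in K36M, 380 CPM in WT) and Des (42.1 CPM in K36M, 89.2 CPM in WT) made up nearly all of this sum. Myod1 (0.367 CPM in K36M, 0.0268 CPM in WT) and Myog (0.497 CPM in K36M, 0.0268 CPM in WT) went the other way at low levels. The part of these cell types in the differences below was not tested. Replicates of K36M d6 differed more than those of any other group (SD of the log2 difference 0.517, against 0.17 to 0.264). In bulk RNA, fewer cells of a type and less RNA per cell cannot be told apart, and this holds for every level below.

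In MEFs at d0 the 7 genes covered a wide range of levels. Per kb of annotated exon, the order in K36M MEFs was Foxp1 (10.2 CPM per kb), Foxc2 (10.0), Foxd1 (4.8), Foxc1 (4.64), Foxf2 (1.01), Foxp2 (0.138) and Foxq1 (0.0164), against Foxc2 (21.6), Foxp1 (13.8), Foxc1 (6.77), Foxd1 (5.16), Foxf2 (0.899), Foxp2 (0.419) and Foxq1 (0.0283) in WT MEFs. At d8 Foxp1 led in K36M cells with 5.09 CPM per kb, while Foxd1 led in WT cells with 17.9 CPM per kb. Of the 7, Foxd1, Foxc1, Foxc2, Foxf2, Foxp1 and Foxp2 were lower in iPSCs than in d0 MEFs of both genotypes, whereas Foxq1 was higher. That direction is not particular to stromal genes: 36.1% of all genes tested were called lower in K36M iPSCs and 37.4% in WT iPSCs. In K36M cells at d8 Foxp1 kept 50% of its d0 level, where the fibroblast sum averaged 230 CPM, against 32600 CPM at d0. Foxp1 was the highest of the 7 per kb in both iPSC groups.

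**Figure D1:**
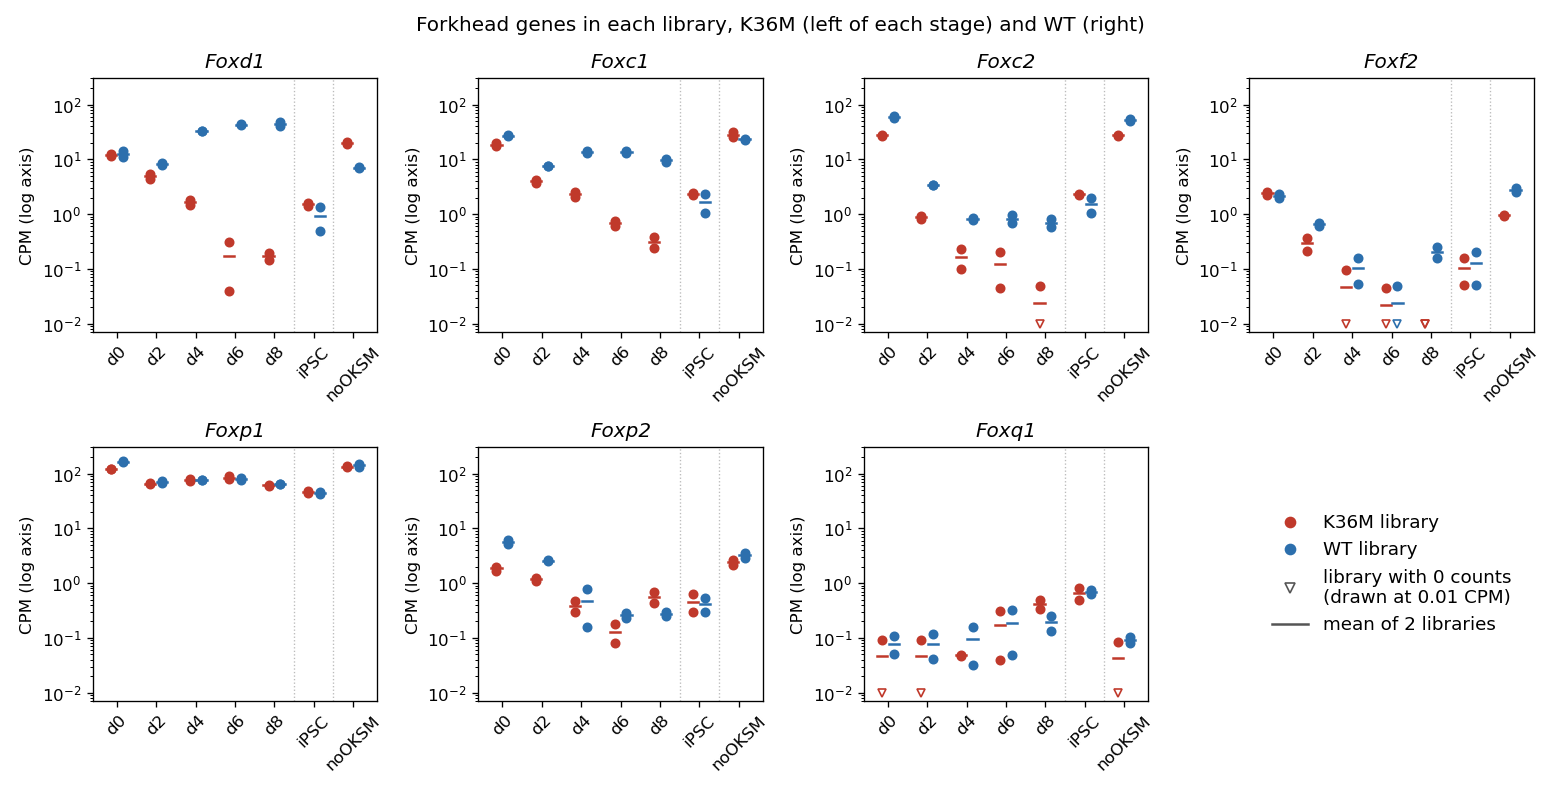
Level of the 7 forkhead genes in each of the 28 libraries, in CPM on a log axis, with K36M libraries left of WT libraries at each stage; bars are means of 2 libraries and open triangles are libraries with 0 counts. Foxd1 and Foxc1 are far lower in K36M from d4 to d8, Foxc2 is low in both genotypes by d2, and Foxp1 stays between 42 and 168 CPM.

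Foxd1 gave the widest separation between genotypes. K36M cells averaged 11.8 ± 0.612 CPM of Foxd1 on d0, then 4.89 ± 0.699 on d2, 1.65 ± 0.251 on d4, 0.176 ± 0.192 on d6 and 0.169 ± 0.0351 on d8 (SD, n = 2 each), so that d8 stood at 1.43% of d0. WT cells averaged 12.7 ± 2.23 CPM on d0, then 8.21 ± 0.286 on d2, 33.0 ± 0.624 on d4, 42.5 ± 1.1 on d6 and 44.0 ± 6.05 on d8 (SD, n = 2 each), so that d8 stood at 347% of d0. WT cells thus dipped at d2 before a level above that of the starting MEFs, and K36M cells were lower at each later day through d6.

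The Foxd1 libraries overlapped between genotypes at d0 and were apart on every later day of reprogramming. At d2 the K36M libraries had 5.38 and 4.39 CPM, against 8.01 and 8.41 CPM in WT libraries (log2 difference -0.74 ± 0.201, SE). At d4 they had 1.48 and 1.83 CPM, against 33.4 and 32.5 CPM (log2 difference -4.31 ± 0.22, SE). The step between d2 and d4 was where both courses diverged, downwards in K36M and upwards in WT. At d8 the K36M libraries had 3 and 4 reads, against 1165 and 1480 reads in WT libraries. Pooled over libraries that is a 256-fold lower level in K36M, with a counting interval (95%) of 124 to 637 that covers counting error only.

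MEFs without OKSM had the opposite order. Foxd1 had 18.7 and 20.8 CPM in K36M noOKSM MEFs, against 6.92 and 7.22 CPM in WT noOKSM MEFs (log2 difference 1.48 ± 0.177, SE). K36M libraries were the higher ones here without overlap, 2.79-fold on the mean. Relative to d0 MEFs, noOKSM MEFs stood at 167% in K36M and at 55.7% in WT. The noOKSM libraries carry another name prefix (MHb9) than all other libraries (MHb8), so the library set and the noOKSM label cannot be told apart in any comparison with d0, while K36M and WT noOKSM share the prefix. In iPSCs Foxd1 was low in both genotypes, at 1.61 and 1.41 CPM in K36M, against 0.501 and 1.37 CPM in WT, with the lower K36M library just above the higher WT one.

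Foxc1 was also far lower in K36M from d4 on, but stayed below the MEF level in both genotypes. On d0, K36M cells averaged 18.5 ± 1.58 CPM of Foxc1, followed by 3.95 ± 0.248 on d2, 2.29 ± 0.381 on d4, 0.679 ± 0.108 on d6 and 0.313 ± 0.1 on d8 (SD, n = 2 each). WT cells averaged 27.0 ± 1.07 CPM on d0, followed by 7.6 ± 0.114 on d2, 13.6 ± 0.527 on d4, 13.6 ± 0.618 on d6 and 9.69 ± 0.804 on d8 (SD, n = 2 each). Levels at d2 stood at 21.3% of d0 in K36M and 28.1% in WT, and at d4 at 12.4% of d0 in K36M and 50.3% in WT.

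K36M libraries were below WT libraries for Foxc1 from d0 to d8. At d0 they had 19.6 and 17.4 CPM, against 26.2 and 27.8 CPM (log2 difference -0.54 ± 0.148, SE). At d8 they had 0.384 and 0.242 CPM, against 9.13 and 10.3 CPM (log2 difference -4.93 ± 0.282, SE), or 13 against 602 reads. In noOKSM MEFs Foxc1 had 31.3 and 25.2 CPM in K36M, against 23.9 and 22.2 CPM in WT (log2 difference 0.29 ± 0.143, SE), with no overlap but a difference of means no wider than the gap between the K36M libraries. In iPSCs the libraries overlapped, at 2.44 and 2.26 CPM in K36M, against 1.05 and 2.32 CPM in WT.

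Foxc2 behaved differently from its relative Foxc1: it was nearly gone in both genotypes by d4. K36M cells averaged 27.3 ± 1.56 CPM of Foxc2 on d0, then 0.875 ± 0.0665 on d2, 0.167 ± 0.0964 on d4 and 0.123 ± 0.111 on d6 (SD, n = 2 each), with 1 read in all at d8. WT cells averaged 58.8 ± 2.63 CPM on d0, then 3.43 ± 0.0017 on d2, 0.821 ± 0.0396 on d4, 0.826 ± 0.193 on d6 and 0.693 ± 0.159 on d8 (SD, n = 2 each). The d2 level was 3.2% of d0 in K36M and 5.84% in WT, so most of the loss fell between d0 and d2 whatever the genotype.

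K36M was also the lower genotype for Foxc2 in both kinds of MEF. At d0 the K36M libraries had 26.2 and 28.4 CPM, against 56.9 and 60.7 CPM in WT (log2 difference -1.11 ± 0.134, SE). In noOKSM MEFs they had 27.7 and 27.0 CPM, against 53.6 and 50.6 CPM (log2 difference -0.93 ± 0.133, SE). The Foxc2 difference thus had one direction in both MEF groups, which that of Foxd1 did not. At d8 the ratio rested on 1 read against 44, 29.8-fold lower in K36M with a counting interval of 5.07 to 1200. In iPSCs Foxc2 was higher in K36M, with 2.28 and 2.31 CPM, against 1.05 and 1.99 CPM in WT.

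Foxf2 was a low-level gene of MEFs. It averaged 2.38 ± 0.277 CPM in K36M MEFs at d0, against 2.12 ± 0.261 CPM in WT MEFs (SD, n = 2 each; the libraries overlapped). At d2 the K36M libraries had 0.368 and 0.217 CPM, against 0.694 and 0.617 CPM in WT libraries. From d4 on the reads were too few to compare: 2 against 6 at d4, 1 against 1 at d6, and 0 against 12 at d8, which with a floor of 3 counts over the group is at least 2.71-fold lower in K36M. In noOKSM MEFs Foxf2 had 0.974 and 0.917 CPM in K36M, against 2.55 and 2.99 CPM in WT (log2 difference -1.54 ± 0.306, SE). The K36M libraries were the lower ones without overlap.

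Foxp1 differed little. It averaged 122 ± 0.923 CPM in K36M MEFs at d0, against 164 ± 4.96 CPM in WT MEFs (SD, n = 2 each; log2 difference -0.44 ± 0.0852, SE). From d2 to d8 the log2 difference lay between -0.10 and 0.07, with SEs of 0.0861 to 0.0867. At d8 the mean was 60.7 ± 2.9 CPM in K36M, against 64.4 ± 0.921 CPM in WT, and in iPSCs 46.2 ± 3.28 CPM in K36M, against 43.7 ± 2.38 CPM in WT (SD, n = 2 each). Pluripotent cells splice Foxp1 RNA differently from other cells, and counts per gene do not separate these forms.

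Foxp2 was a MEF gene with the larger WT level. At d0 it had 2.01 and 1.7 CPM in K36M, against 5.21 and 6.07 CPM in WT (log2 difference -1.60 ± 0.284, SE). At d2 it had 1.1 and 1.25 CPM in K36M, against 2.49 and 2.66 CPM in WT (log2 difference -1.13 ± 0.329, SE). At d8 the K36M libraries were the higher ones at 0.432 and 0.677 CPM, against 0.249 and 0.296 CPM in WT, on 23 against 17 reads. Foxq1 ran the other way from the rest of the set. It reached its highest level in iPSCs, 0.83 and 0.502 CPM in K36M, against 0.752 and 0.621 CPM in WT. In MEFs at d0 Foxq1 had 2 reads in K36M, against 3 in WT. The start of A530084C06Rik lies 1.2 kb from that of Foxq1, and with the strand setting of the counting not given, reads of the pair may not be separable.

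The fibroblast markers moved with the same groups, so each level was also set against their sum in the same library. At d8 Foxc1 stood at 1.37 ± 0.491 CPM per 1000 CPM of fibroblast markers in K36M cells, against 1.86 ± 0.293 in WT cells (SD, n = 2 each), with ranges that overlap. Foxc2 stood at 0.102 ± 0.144 per 1000 in K36M cells at d8, against 0.133 ± 0.0404 in WT cells, the K36M value resting on 1 read. Foxd1 stood at 0.73 ± 0.122 per 1000 in K36M cells at d8, against 8.36 ± 0.521 in WT cells (SD, n = 2 each). On this scale the Foxc1 and Foxc2 libraries overlapped between genotypes at d8 and the Foxd1 libraries did not. The Foxc1 libraries overlapped at d4 too, but were apart at d0 (0.568 ± 0.054 in K36M, against 0.973 ± 0.0578 in WT), at d2 (0.754 ± 0.0658 in K36M, against 1.03 ± 0.0187 in WT) and at d6 (1.4 ± 0.0785 in K36M, against 2.03 ± 0.0891 in WT; SD, n = 2 each). Foxp2 had the opposite order at d8, with 2.39 ± 0.655 per 1000 in K36M, against 0.0522 ± 0.0102 in WT (SD, n = 2 each). Those Foxp2 values rest on 23 reads in K36M and 17 in WT, or 0.554 and 0.272 CPM. Most of the gap lies in the marker sum, 230 CPM in K36M and 5260 CPM in WT. Foxd1 on this scale was also 0.931 ± 0.11 in K36M at d2, against 1.12 ± 0.0423 in WT, and 1.22 ± 0.212 in K36M at d4, against 4.25 ± 0.0633 in WT. Vim made up the largest part of the marker sum at d8 (118 of 230 CPM in K36M, 3470 of 5260 CPM in WT). At d0 Col1a1 did (12700 of 32600 CPM in K36M, 10700 of 27800 CPM in WT). No sum without Vim was used, so the overlaps at d4 and d8 hold only for the sum with Vim. The markers themselves respond to culture conditions, and their part in the forkhead differences was not tested.

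**Figure D2:**
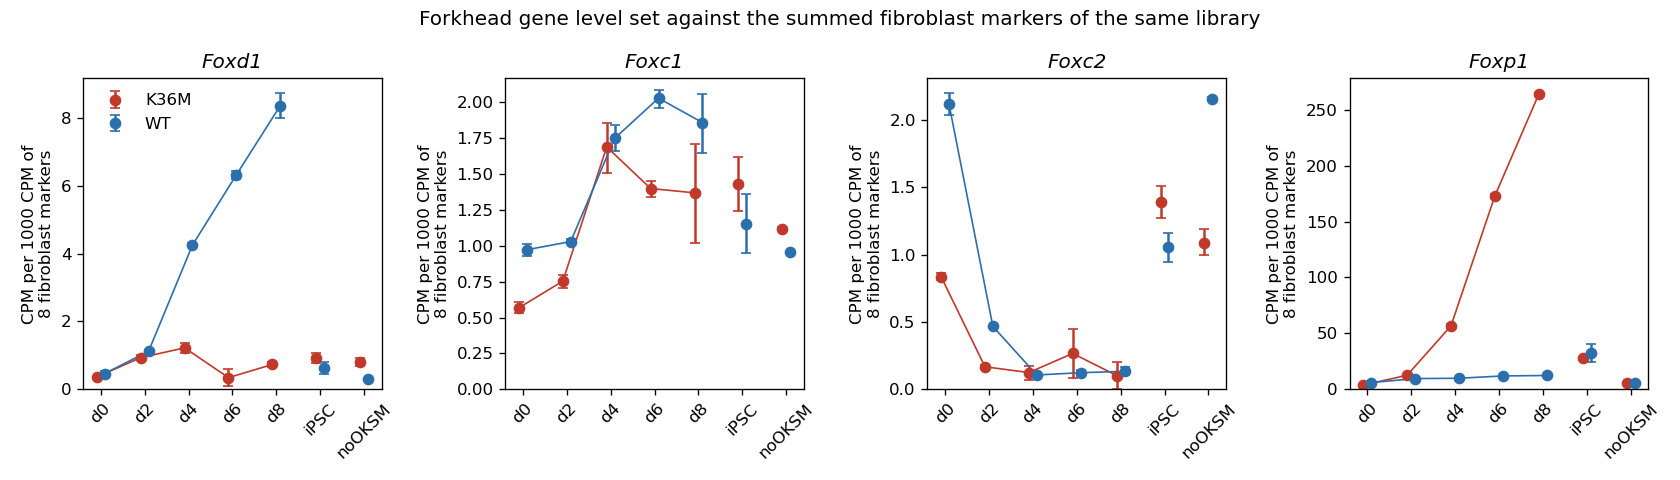
Level of 4 forkhead genes per 1000 CPM of 8 summed fibroblast markers in the same library, by stage; points are means of 2 libraries, bars reach from the lower to the higher library, red is K36M (left) and blue is WT (right). At d8 Foxd1 stands at 0.73 in K36M and 8.36 in WT, while the Foxc1 bars (1.37 and 1.86) and Foxc2 bars (0.102 and 0.133) overlap. Foxp1 stands at 264 in K36M and 12.3 in WT at d8. Its own level there was 60.7 CPM in K36M and 64.4 CPM in WT, so that gap lies in the marker sum.

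In iPSCs the same markers bear on the low forkhead levels. The fibroblast sum was 1510 to 1820 CPM in K36M iPSCs, against 1110 to 1710 CPM in WT iPSCs, above that of K36M cells at d8. The WT iPSC replicate with more Foxd1, Foxc1 and Foxc2 was also the one with the higher fibroblast sum. Whether the iPSC cultures held other cells is not given in the labels and was not tested.

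Over 14 group means, the profile of Foxd1 was most like those of Txndc16, Lamb2 and Tnfsf11 (Pearson r of log2 levels 0.97, 0.96 and 0.95). Foxc1 was most like Zfp503 and Gnb5 (0.99 and 0.98), Foxc2 most like Smoc2 and Camk2g (0.99 and 0.98), and Foxf2 most like Plxna4, Wnt2 and Srf (0.98, 0.97 and 0.97). Foxp1 was most like Pdcl3, Arl8a and Myl12a (each 0.98) and Foxp2 most like Gpr125, Gata6 and Impa1 (0.97, 0.96 and 0.96). Within the set Foxc2 and Foxf2 were the most alike (0.95), followed by Foxf2 and Foxp2 (0.89), Foxc2 and Foxp2 (0.88) and Foxd1 and Foxc1 (0.86), while Foxd1 and Foxc2 had 0.37. These correlations describe 14 means that share stages and genotypes.

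Among all 16932 genes tested with edgeR's quasi-likelihood test (adjusted p below 0.05), the share called higher and lower in K36M sets the scale for the 7. At d0, 0 of the 7 were called higher, against 7.6% of all genes, and 4 lower, against 8.31%. At d2, 0 were higher (9.74% of all genes) and 4 lower (10.4%). At d4, 0 were higher (27.1%) and 3 lower (25.8%), and at d6, 0 were higher (37.3%) and 3 lower (33.7%). At d8, 0 were higher (31.6%) and 4 lower (29%). In iPSCs 0 were called in either direction, against 0.756% of all genes higher and 0.49% lower. In noOKSM MEFs 1 was higher (18.2%) and 2 lower (16.7%). Against their own d0 MEFs, 1 of 7 was higher and 6 lower in K36M iPSCs (39.4% and 36.1% of all genes), and 1 higher and 6 lower in WT iPSCs (40.1% and 37.4%). The 7 were picked from these comparisons, so nothing is read from the counts.

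The other forkhead genes were tested. Of 29, 10 rose and 3 fell in K36M at d4 (27.1% and 25.8% of all genes). At d6 14 rose and 8 fell (37.3% and 33.7%), and at d8 11 rose and 3 fell (31.6% and 29%). At d4 and d8 the share that rose was not far from that of all genes, and the share that fell was lower. At d0 3 rose and 3 fell (7.6% and 8.31% of all genes), as at d2 (9.74% and 10.4%). In noOKSM MEFs 5 rose and 6 fell (18.2% and 16.7%). In iPSCs none passed (0.756% and 0.49%), and 2 had an unadjusted edgeR p below 0.05. A fit of the iPSC stage alone called 1 gene, the most of any alternative. The median log2 difference of the 29 was 0.62 at d8, against 0.04 over all genes. The 29 leave out the 7, which were chosen from these data and of which 4 were called lower and 0 higher at d8. Leaving them out shifts the balance and the median of the rest upwards, so neither is read as a trait of the family. Single libraries moved several of these counts: the rises at d0 were 1 without K36M replicate 1, 0 without WT replicate 1 and 5 without WT replicate 2, and those at d6 were 9 without WT replicate 1 and 8 without WT replicate 2. The falls at d2 were 1 without K36M replicate 1 and 0 without K36M replicate 2 or WT replicate 2, the falls at d4 were 1 without K36M or WT replicate 2, and the rises in noOKSM MEFs were 3 without either WT replicate.

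Foxh1, the partner of Smad proteins in Nodal signalling, rose early in K36M cells. It had 29.1 and 29.6 CPM in K36M cells at d4, against 0.0531 and 0.19 CPM in WT cells (log2 difference 7.67 ± 0.242, SE, edgeR adjusted p = 1.62e-16). At d8 it averaged 38.9 ± 1.22 CPM in K36M, against 9.94 ± 0.452 CPM in WT (SD, n = 2 each; edgeR adjusted p = 1.69e-11). WT cells thus reached at d8 a level that K36M cells had passed by d4. Foxo1, a factor of the insulin pathway that is also used by pluripotent cells, averaged 79.3 ± 1.24 CPM in K36M at d8, against 34.1 ± 1.43 CPM in WT (log2 difference 1.22 ± 0.135, SE, edgeR adjusted p = 5.87e-08). Foxd3, a factor of pluripotent and neural crest cells, averaged 4.14 ± 0.0941 CPM in K36M at d8, against 1.18 ± 0.0337 CPM in WT (edgeR adjusted p = 0.000385). Foxn4 and Foxi3, known from retina and from ectodermal appendages, rose at d4: they averaged 1.51 ± 0.0159 and 4.63 ± 0.357 CPM in K36M (SD, n = 2 each), against 1 read each over both WT libraries (edgeR adjusted p = 3.51e-06 and 1.83e-08).

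Of the other forkhead genes, Foxf1a and Foxs1 were lower in K36M MEFs at d0. Foxf1a, a mesenchymal relative of Foxf2 that lies beside Foxc2, had 1.65 and 1.57 CPM in K36M MEFs at d0, against 4.45 and 5.2 CPM in WT MEFs (log2 difference -1.58 ± 0.246, SE, edgeR adjusted p = 7.66e-05). It was lower in K36M on each of the 5 days to d8, though the d8 call was lost without K36M replicate 2 (edgeR adjusted p = 0.0761) and the d2 call without K36M replicate 2 (0.0742) or WT replicate 2 (0.0576). In noOKSM MEFs Foxf1a had 4.11 and 3.67 CPM in K36M, against 3.6 and 3.47 CPM in WT, and the change of the difference between noOKSM and d0 passed the test (1.72 ± 0.33 log2, SE, edgeR adjusted p = 0.000636). Foxs1, a factor of pericytes and neural crest, had 13.4 and 16.5 CPM in K36M MEFs at d0, against 33.2 and 26.8 CPM in WT MEFs (edgeR adjusted p = 9.07e-05). In noOKSM MEFs Foxs1 averaged 25.0 ± 1.82 CPM in K36M, against 27.6 ± 1.14 CPM in WT (SD, n = 2 each). At d2 Foxs1 was at 0.231 CPM or less in all libraries, low in both genotypes as Foxc2 was. Foxl1, also beside Foxc2, averaged 1.06 ± 0.137 CPM in K36M MEFs at d0, against 1.15 ± 0.181 CPM in WT (SD, n = 2 each). In noOKSM MEFs it was higher in K36M, with 1.93 ± 0.514 CPM, against 0.927 ± 0.171 CPM in WT (SD, n = 2 each). That call was lost with DESeq2 (DESeq2 adjusted p = 0.136) and without K36M replicate 2, WT replicate 1 or WT replicate 2.

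**Figure D3:**
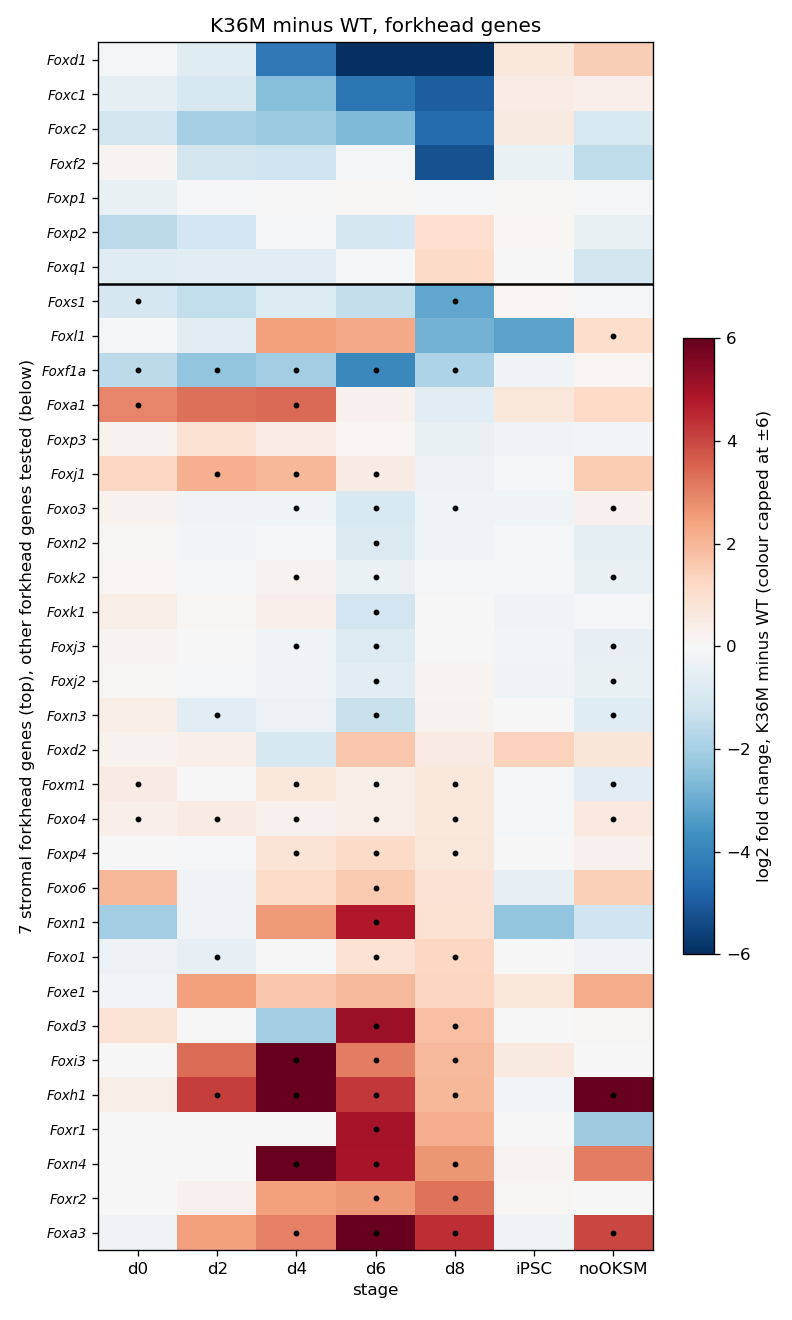
Log2 difference between K36M and WT at each of 7 stages for the 7 stromal forkhead genes (above the line, not tested) and other forkhead genes tested (below, ordered by their d8 value); black dots mark edgeR adjusted p below 0.05 and colours are capped at ±6. Blue at d4 to d8 fills the rows of Foxd1 and Foxc1, and Foxh1, Foxi3, Foxn4 and Foxa3 are red at d8. The Foxf2 cell at d8 rests on 0 against 12 reads, and the Foxa3 cell on 19 against 1.

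Most of 25 further stromal transcription factors were lower in K36M from d4 on. Of the 24 tested, 1 rose and 8 fell in K36M at d2, 2 rose and 17 fell at d4, 3 rose and 20 fell at d6, and 2 rose and 19 fell at d8, where 29% of all genes fell. Prrx1, a factor of limb and skin mesenchyme, averaged 2.58 ± 0.222 CPM in K36M at d8, against 211 ± 0.91 CPM in WT (log2 difference -6.35 ± 0.192, SE, edgeR adjusted p = 2.43e-17). Twist1, a factor of mesenchymal identity, averaged 1.3 ± 0.417 CPM in K36M at d8, against 27.9 ± 2.27 CPM in WT (edgeR adjusted p = 4.41e-15). At d0 the list ran the other way, with 7 rising and 1 falling, but the rises numbered 2 without K36M replicate 1, 1 without K36M replicate 2 and 3 without WT replicate 1. In noOKSM MEFs 8 rose and 4 fell (5 and 3 without K36M replicate 1), with Meox1 at 8.91 ± 1.24 CPM in K36M, against 1.05 ± 0.0526 CPM in WT (edgeR adjusted p = 3.52e-08).

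Hedgehog pathway genes, which act upstream of Foxf and Foxc genes in embryonic mesenchyme, differed in K36M MEFs before OKSM. Of 12 tested, 7 rose and 0 fell at d0 (7.6% and 8.31% of all genes), and fewer rose without WT replicate 1. In noOKSM MEFs 6 rose and 0 fell (18.2% and 16.7% of all genes). Gli1, a target and effector of the pathway, averaged 5.65 ± 1.12 CPM in K36M noOKSM MEFs, against 0.263 ± 0.0268 CPM in WT (log2 difference 4.40 ± 0.246, SE, edgeR adjusted p = 5.31e-12). Hhip, a target that binds and buffers the ligands, averaged 3.96 ± 0.33 CPM in K36M at d0, against 0.263 ± 0.0834 CPM in WT (edgeR adjusted p = 8.8e-09). At d4 3 rose and 7 fell (27.1% and 25.8% of all genes), and at d6 3 rose and 9 fell (37.3% and 33.7%). Gas1, a coreceptor, averaged 0.337 ± 0.0111 CPM in K36M at d4, against 8.67 ± 0.929 CPM in WT (log2 difference -4.67 ± 0.23, SE, edgeR adjusted p = 9.39e-14). At d4 Gli1 and the ligand gene Dhh rose while the coreceptor gene fell. At d8 5 rose and 5 fell (31.6% and 29% of all genes), and fewer rose with either K36M replicate or either WT replicate left out.

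The CtBP and NuRD genes, which code for partners of Foxp proteins, were called about as often as all genes. Of 15 tested, 6 rose and 3 fell at d4 (27.1% and 25.8% of all genes), 6 rose and 4 fell at d6 (37.3% and 33.7%), and 4 rose and 5 fell at d8 (31.6% and 29%). Chd3, a NuRD remodeller, averaged 35.4 ± 1.35 CPM in K36M at d8, against 345 ± 12.1 CPM in WT (log2 difference -3.28 ± 0.125, SE, edgeR adjusted p = 9.1e-16). The CtBP genes parted at d8: Ctbp1 averaged 73.4 ± 1.96 CPM in K36M, against 151 ± 0.171 CPM in WT (edgeR adjusted p = 3.08e-10), and Ctbp2 averaged 164 ± 2.9 CPM in K36M, against 91.6 ± 0.76 CPM in WT (edgeR adjusted p = 7.44e-10). In noOKSM MEFs 0 rose and 3 fell. At d0 1 rose and 1 fell, and 0 passed in either direction without K36M replicate 1, K36M replicate 2 or WT replicate 1.

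Genes near the 7 differed at d8 by widely varying amounts. Of 22 tested neighbours with a start within 500 kb, 4 rose and 10 fell in K36M at d8, against 31.6% and 29% of all genes. Prok2, a secreted peptide gene at -459.9 kb from Foxp1, fell, with 0 reads in both K36M libraries, against 22 and 41 reads in WT libraries (edgeR adjusted p = 8.61e-06). Tmem171, 340.6 kb from Foxd1, fell, with 1 read in each K36M library, against 12 and 11 reads in WT libraries (edgeR adjusted p = 0.00352). Btf3, whose start lies at -37.2 kb from that of Foxd1, averaged 343 ± 2.39 CPM in K36M, against 346 ± 12.2 CPM in WT (log2 difference -0.01 ± 0.112, SE, edgeR adjusted p = 0.926). Rgnef, at -148.1 kb from Foxd1, fell (log2 difference -1.44 ± 0.122, SE, edgeR adjusted p = 6.81e-10), at d8 as in noOKSM MEFs, where Foxd1 was the higher in K36M. Mthfsd, at -7.8 kb from Foxc2, fell by 0.39 on the log2 scale at d8 (edgeR adjusted p = 0.00424), beside -4.61 ± 0.718 (SE) for Foxc2. Mdfic, 819.3 kb from the start of Foxp2 and within 500 kb of its end, averaged 3.44 ± 0.0557 CPM in K36M at d8, against 25.3 ± 0.225 CPM in WT (edgeR adjusted p = 2.25e-15), while Foxp2 was the higher in K36M. No other gene with its annotated start within 500 kb of Foxq1, Foxf2 or Foxc1 passed the filter on low counts.

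**Figure D4:**
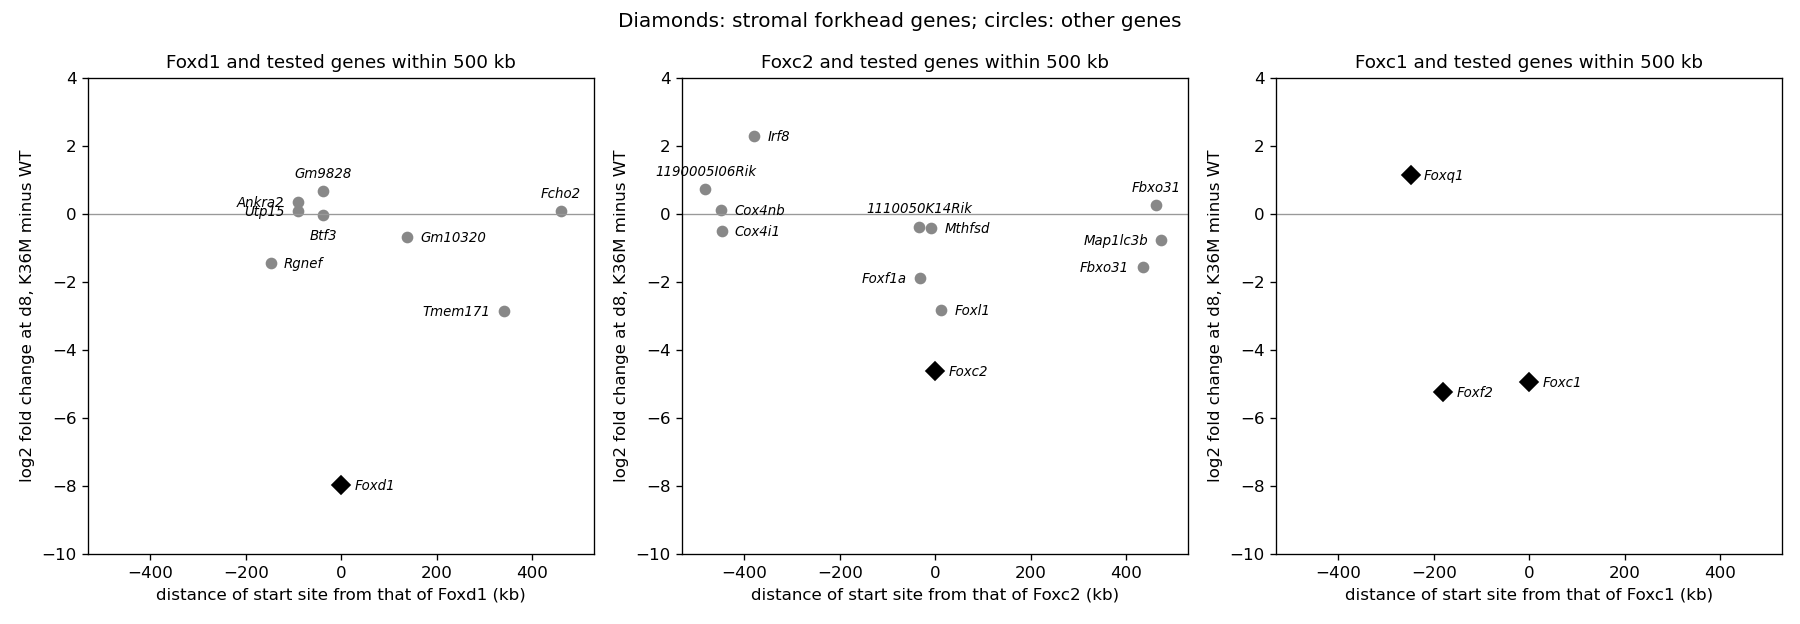
Log2 difference at d8, K36M minus WT, against the distance of each start site from that of Foxd1 (left), Foxc2 (middle) or Foxc1 (right), in kb; diamonds are stromal forkhead genes and circles other tested genes within 500 kb. Foxd1 at -7.98 and Foxc2 at -4.61 lie below all their neighbours, and around Foxc1 the plot holds Foxf2 (0 against 12 reads) and Foxq1 alone.

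The change of the genotype difference between stages was tested for the other forkhead genes. Over all genes it differed between d8 and d0 for 38.2% and between noOKSM and d0 for 25.1%. Of the 29 other forkhead genes, 8 passed for d8 against d0 (5 upwards and 3 downwards), and 8 for noOKSM against d0 (3 upwards and 5 downwards). For the 7 the same quantity is a description only: it was -7.88 ± 0.389 (SE) for Foxd1, -4.39 ± 0.341 for Foxc1, -3.50 ± 0.818 for Foxc2 and 0.35 ± 0.122 for Foxp1 at d8 against d0. At noOKSM against d0 it was 1.59 ± 0.251 (SE) for Foxd1, 0.84 ± 0.206 for Foxc1, 0.18 ± 0.187 for Foxc2 and -1.71 ± 0.425 for Foxf2.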

How the data were processed

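Poly(A) RNA libraries were made with a directional kit and read on an Illumina instrument, per the labels' protocols. Raw gene counts for the 28 libraries came as a single table deposited by the authors. The submitters' processing notes name mm9, HTSeq 0.11.2, STAR 2.5.0 and edgeR, without roles; for the strand setting and annotation, nothing is stated in the sources used here. Columns were matched to samples by name (0 unused); those of the iPSC and noOKSM libraries have NA for the stage and were matched by library number, genotype and replicate, and GENCODE vM1 held 37205 of the 37620 gene IDs.

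In R 4.3.3 with edgeR 4.0.16, TMM factors scaled the libraries. The filterByExpr function (10 counts minimum, 15 in total) removed low genes, and all 14 groups entered 1 robust quasi-likelihood fit (16932 genes, 14 residual degrees of freedom). Tests were two-sided, with Benjamini-Hochberg adjustment over all genes and a threshold of 0.05. CPM values are counts over the TMM-scaled library size, and SEs are the log2 difference over the square root of F. The pipeline was tested on simulated data. Alternatives were RLE scaling, no filter, DESeq2 1.42.0, a replicate block, single-stage fits and leaving out each library.

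The 7 genes, the lists and the tests were chosen with earlier results of these data known. Named genes are the 7, other forkhead genes that passed the filter, up to 4 called genes of each list per contrast with the largest change, neighbours within 500 kb, and the 3 genes most alike over 14 group means of log2(CPM + 0.5) among those reaching 5 CPM; Foxq1, which never reached 1 CPM, got none. A few items that these rules name are not reported here.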

Additional observations from a re-analysis of the deposited data

Results flagged for a closer look

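The genotype difference (K36M minus WT, log2) changed between d8 and d0 for several of the other forkhead genes tested (edgeR's quasi-likelihood test of the difference itself). The change was 4.60 for Foxa3, 1.59 for Foxo1, 0.65 for Foxp4 and 0.35 for Foxo4. It was -3.59 for Foxa1, -2.09 for Foxs1 and -0.47 for Foxo3. Reads behind the largest changes were few (K36M against WT). Foxa3 had 19 against 1 at d8 and 3 against 3 at d0, and Foxa1 had 5 against 12 at d8 and 37 against 4 at d0. The changes of Foxo1 and Foxo3 passed whichever 1 library was left out, and those of Foxa3, Foxp4, Foxo4, Foxa1 and Foxs1 each failed without at least 1 library. Between noOKSM and d0 the genotype difference changed for 8. It changed by 5.88 for Foxh1 (20 against 0 reads in noOKSM MEFs, 3 against 2 at d0), 1.72 for Foxf1a and 0.86 for Foxs1. It changed by -1.13 for Foxn3, -1.09 for Foxm1, -0.65 for Foxj3, -0.58 for Foxk2 and -0.52 for Foxj2. Of these 8, the calls of Foxh1, Foxs1 and Foxj2 failed without at least 1 library.

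For the genes of the set the following changes were not tested. In each, all K36M libraries lay above all WT libraries at one stage and below them at the other. The list is not complete. The same held for Foxd1 and Foxc2 between iPSCs and each of d2, d4, d6 and d8. It also held for Foxp2 between d8 and each of d2 and d6. For Foxd1 the difference in noOKSM MEFs exceeded that at d2 by 2.22, that at d4 by 5.79, that at d6 by 9.41 and that at d8 by 9.46. For Foxc1 the noOKSM excess was 0.84 over d0, 1.24 over d2, 2.86 over d4, 4.62 over d6 and 5.23 over d8. For Foxc2 the difference in iPSCs exceeded that at d0 by 1.67, and the noOKSM difference minus the iPSC difference was -1.49. For Foxp2 the d8 difference exceeded that at d0 by 2.59, and the noOKSM difference minus the d8 difference was -1.42. Each stage holds 2 libraries per genotype, for which an exact permutation test cannot give a two-sided p below 0.333.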

How the results depend on the processing

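No called result changed sign under any alternative run. Counts of genes called in K36M against WT moved by over 1.5 times in few settings: in iPSCs 211 genes became 447 with no filter on low counts, 319 with DESeq2 and 1397 in a fit of that stage alone, and in fits of single stages d2 gave 6818 in place of 3405 and d6 gave 7731 in place of 12013. Leaving out 1 library at a time gave 1209 to 2783 genes at d0, 2105 to 2264 at d2, 52 to 251 in iPSCs, 642 to 1381 for WT noOKSM against WT d0, 3327 to 5608 for K36M noOKSM against K36M d0, and 2333 to 4831 for the change between noOKSM and d0. The cause was not tested. Replicate numbers did not pair libraries (correlations of same-stage deviations from -0.13 to 0.26, 3 of 7 above 0.1), and for K36M minus WT at d8 a replicate block gave 10294 genes in place of 10261. For Foxd1 the log2 difference at d6 was -9.87 without K36M replicate 1 and -7.07 without K36M replicate 2, as 1 and 7 reads differ. For Foxc2 at d8 DESeq2 gave -4.85, and for Foxf2 -4.44. Foxq1 values at d0 ran from -3.95 to 0.22 with 1 K36M library left out. Depth limits Foxf2 from d4 on and Foxq1 in all groups.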
